A study of Mus musculus with 12 samples.

Results

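The fetal identity genes described here are 9 genes. The RNA of several of them is known to be abundant in embryonic tissues and to decline as tissues mature. The list holds the LIN28 genes *Lin28a* and *Lin28b* and the HMGA genes *Hmga1* and *Hmga2*. It also holds the IGF2BP genes *Igf2bp1*, *Igf2bp2*, and *Igf2bp3* and the transcription factor genes *Arid3a* and *Hic2*. They were taken by name from the counts, where all 9 were found among 38127 genes, and all 9 passed the low count filter of every comparison. RNA of sorted C57BL/6 mouse fetal liver (FL) cells was sequenced in 12 libraries, 3 for each of 4 groups, to characterize the Kit+ cells beside epithelial and endothelial cells of the same organ. All groups were Ter119- and CD45-, that is, without the surface markers of late erythroid cells and of most blood cells. P2 cells at embryonic day 14.5 (E14.5) were CD54-CD31-Kit+CD24+. CD54+CD31- cells at E14.5 are named CD324+ in the study, after epithelial cadherin, and include hepatoblasts, the precursors of hepatocytes and bile duct cells. CD31+ cells at E14.5 were CD54+CD31+ and represent endothelial cells. The last group, CD54+CD31- cells at E18.5, carries the gate of the E14.5 epithelial cells at an age close to birth. The study describes the E14.5 libraries as coming from independent litters, and FLs were depleted of Ter119+ and CD45+ cells before the sort.

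Total counts ranged from 40714017 to 64368883 per library, so that counting error mattered only for *Lin28a*, and the number of libraries limited the precision. Levels are in CPM, counts scaled to a common depth, on library sizes adjusted by TMM, a scaling that assumes most genes do not differ. At E14.5 each group was highest in the markers of its labelled cell type. The summed level of 8 erythroid markers was 2410 to 2510 CPM in P2 cells and at most 494 CPM elsewhere, 10 hepatoblast markers summed to 69800 to 80100 CPM in CD54+CD31- cells at E14.5 and at most 920 CPM in P2 and CD31+ cells, and 8 endothelial markers summed to 9660 to 10100 CPM in CD31+ cells and at most 391 CPM elsewhere. This highest value was that of P2 replicate 2, against 58.0 and 106 CPM in P2 replicates 1 and 3. The E18.5 libraries went against their label of a liver epithelial gate. In replicates 1, 2, and 3 their hepatoblast markers summed to 5940, 36100, and 46500 CPM, and 9 lung epithelium markers to 21800, 9920, and 10100 CPM, against 151 to 165 CPM in the same gate at E14.5, where the lung factor gene *Nkx2-1* was at 0. *Abca3* alone gave 150 to 163 CPM of that E14.5 sum. Markers of heart were also measured, and these 4 genes summed to 97.0, 37.5, and 28.6 CPM at E18.5 and to 0.395 to 1.45 CPM in this gate at E14.5. All 3 E18.5 libraries held lung genes, so no comparison by age could be made without them.

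LIN28A and LIN28B are RNA-binding proteins that block the maturation of let-7 microRNAs, and let-7 in turn represses the mRNAs of many fetal genes, including *Lin28a*, *Lin28b*, *Hmga2*, and the IGF2BP genes. In fetal blood progenitors *Lin28b* is known for maintaining a fetal program that declines toward adult life. HMGA proteins bind AT-rich DNA and shape chromatin, IGF2BP proteins bind mRNAs such as *Igf2* and *Myc* and affect their stability and translation, ARID3A is an AT-rich DNA-binding factor, and HIC2 is a zinc finger repressor known to act on *Bcl11a*, the gene of a repressor of fetal globin genes.

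The sequence that these genes share is a match to the let-7 seed, bases 2 to 8 of the microRNA. In RefSeq (GRCm38.p6), 10 of 11 mature mouse let-7 family microRNAs have the same seed, GAGGUAG, which pairs with CTACCTC in a target. 3 members are shown here with the seed in capitals, because their remaining bases differ while the seed does not.
let-7a: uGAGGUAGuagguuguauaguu
let-7b: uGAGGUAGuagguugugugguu
let-7g: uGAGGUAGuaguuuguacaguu
The hairpin genes of let-7 were not analysed here, so the levels of the microRNAs themselves are not known.

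Each of the 9 genes had at least 1 CTACCTC in its longest annotated 3′ UTR (GENCODE vM21, searched on the transcript strand), against 10.5% of 14110 tested genes with a UTR. Since several of these genes are known as let-7 targets, the share is a description of the list. *Lin28b*, *Hmga2*, *Igf2bp1*, and *Hic2* had 4 matches each, *Lin28a* and *Arid3a* had 2, and *Hmga1*, *Igf2bp2*, and *Igf2bp3* had 1. Length bears on such counts: 35.3% of UTRs with 0.8 to 1.25 times the length of the *Igf2bp1* UTR (6337 bases) held at least 1 match, 17.6% at the length of the *Hmga2* UTR (3014 bases), and 9.06% at the length of the *Hmga1* UTR (1183 bases). UTRs with at least 4 matches were 0.107% of the 1871 of a length like that of *Hmga2* and 0.418% of the 479 of a length like that of *Igf2bp1*. Each of these length sets includes the gene itself, so these 2 shares rest on very few UTRs besides it. The match nearest to the stop codon is shown for each gene, with 14 bases before it and 1 after it in the sense of the transcript and the match in capitals, to let the surroundings be compared.
Lin28a, chr4:134005189-134005210, minus strand: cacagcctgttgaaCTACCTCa
Lin28b, chr10:45381022-45381043, minus strand: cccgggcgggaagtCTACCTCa
Hmga1, chr17:27563278-27563299, plus strand: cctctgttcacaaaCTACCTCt
Hmga2, chr10:120364224-120364245, minus strand: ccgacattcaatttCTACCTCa
Igf2bp1, chr11:95961778-95961799, minus strand: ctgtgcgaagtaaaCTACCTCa
Igf2bp2, chr16:22059473-22059494, minus strand: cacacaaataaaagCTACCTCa
Igf2bp3, chr6:49086787-49086808, minus strand: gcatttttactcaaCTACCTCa
Arid3a, chr10:79953896-79953917, plus strand: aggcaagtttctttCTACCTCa
Hic2, chr16:17259370-17259391, plus strand: tgctggtgactattCTACCTCc
The bases before the match differed from gene to gene. An A after the match, a context known to strengthen let-7 sites, was present at 1 or more matches of every gene except *Hmga1*. The first matches of *Lin28b* and *Hmga2* lay 36 and 58 bases after the stop codon.

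**Figure D1:**
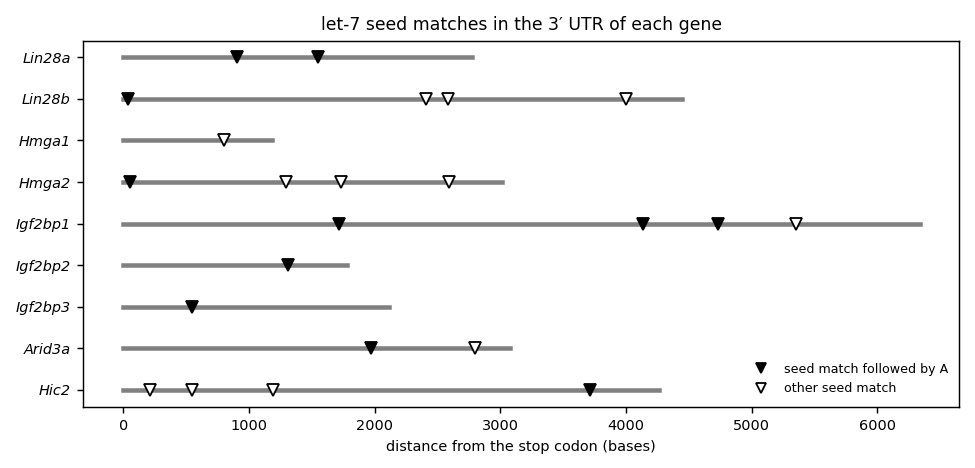
Positions of CTACCTC in the longest 3′ UTR of each of the 9 genes. Grey bars are the UTRs, to scale, the x axis is the distance from the stop codon in bases, filled triangles are matches followed by A, and open triangles are other matches. *Lin28b*, *Hmga2*, *Igf2bp1*, and *Hic2* carry 4 matches each.

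Among the 9 genes, the groups did not share a common order of levels. *Lin28b* and *Hmga1* were highest in P2 cells, *Hmga2* in CD31+ cells, and the other 6 genes in CD54+CD31- cells at E14.5. In each of the 3 comparisons at E14.5, all 9 genes were called (adjusted p below 0.05). Of the 15461 genes tested, 70.0% were called between P2 and CD54+CD31- cells and 73.7% in P2 against CD31+ cells. Between CD31+ and CD54+CD31- cells, 65.6% were called. Of the 9 genes, 2 were higher and 7 lower in P2 than in CD54+CD31- cells (33.8% and 36.1% of all genes), and 4 were higher and 5 lower in P2 than in CD31+ cells (34.3% and 39.4% of all genes). Since most genes were called, these counts say little about the 9. Their median log2 fold change was -1.07 in P2 against CD54+CD31- cells (-0.01 over all genes tested), -0.34 in P2 against CD31+ cells (-0.13 over all genes), and -1.03 in CD31+ against CD54+CD31- cells (-0.03 over all genes). These comparisons share libraries. In bulk RNA, fewer cells that express a gene and less RNA per cell cannot be told apart, and this holds for every level given here.

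**Figure D2:**
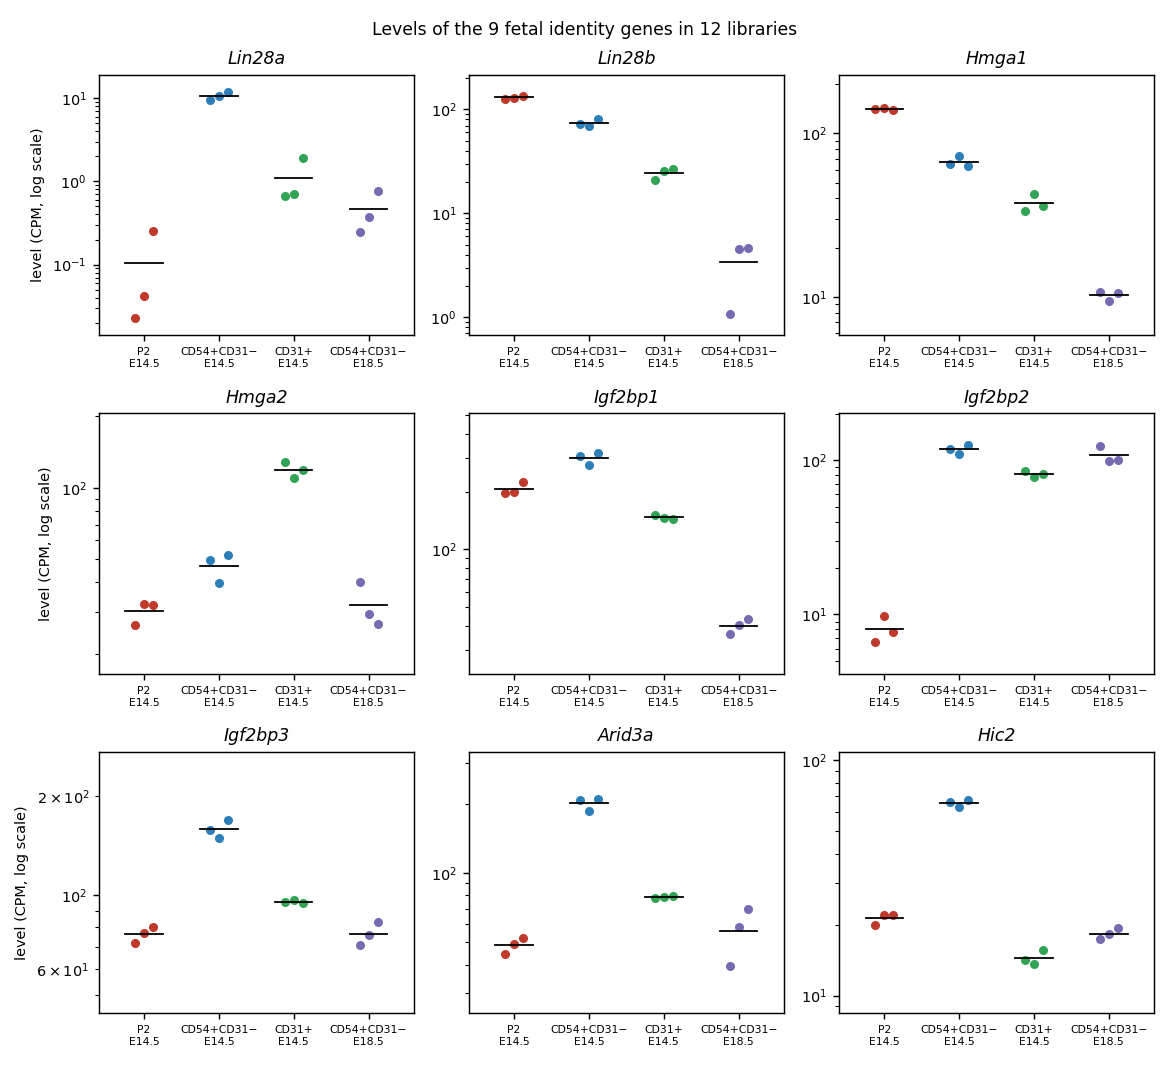
Levels of the 9 genes in the 12 libraries, in CPM on a log scale whose range differs between panels. Points are libraries, 3 per group, and the horizontal line is their mean. *Lin28b* and *Hmga1* are highest in P2 cells, *Hmga2* in CD31+ cells, and the others in CD54+CD31- cells at E14.5.

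*Lin28b* (ENSMUSG00000063804, chromosome 10 of GRCm38 from 45376620 to 45486395, minus strand) was the LIN28 gene of the P2 cells. Its level in replicates 1, 2, and 3 was 127, 129, and 135 CPM in P2 cells, 72.0, 70.0, and 80.6 CPM in CD54+CD31- cells at E14.5, 20.7, 25.5, and 26.4 CPM in CD31+ cells, and 1.08, 4.58, and 4.64 CPM in CD54+CD31- cells at E18.5. Every P2 library was above every library of the other groups, and the E18.5 libraries were the lowest. The level in P2 cells was 1.73-fold that in CD54+CD31- cells at E14.5 (log2 fold change 0.79, SE 0.10, adjusted p = 5.72e-05 from edgeR) and 5.34-fold that in CD31+ cells (log2 fold change 2.42, SE 0.11, adjusted p = 5.33e-08 from edgeR). The call against CD54+CD31- cells was lost when all 12 libraries were fitted together, where the log2 fold change was 0.81 and edgeR's adjusted p = 0.0668. CD31+ cells were 3.08-fold below CD54+CD31- cells (log2 fold change -1.62, SE 0.11, adjusted p = 3.65e-07 from edgeR). Erythroid markers were also measured in the other gates. As shares of the P2 mean, their sum was 12.5% to 20.2% in CD54+CD31- cells at E14.5, where *Lin28b* was 53.7% to 61.9%, and 13.0% to 17.7% in CD31+ cells, where *Lin28b* was 15.9% to 20.3%. In CD31+ cells the shares were therefore close for the sum, though single markers varied around it. *Klf1* had 33.3 CPM there against 397 CPM in P2 cells, and *Tal1* 83.7 against 275 CPM, with the other markers in between as shares. CD31+ libraries also had 254 to 443 CPM of 4 megakaryocyte markers, against at most 67.2 CPM elsewhere. The part of erythroid RNA in the *Lin28b* level was not tested.

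*Lin28a* (ENSMUSG00000050966, chromosome 4 from 134003330 to 134018841, minus strand), which like *Lin28b* encodes a protein that blocks let-7 maturation, was close to its detection limit in P2 cells. The 3 P2 libraries held 1, 2, and 13 counts (0.0230, 0.0416, and 0.2503 CPM). CD54+CD31- cells at E14.5 had 9.56, 10.5, and 11.97 CPM from 335 to 485 counts, CD31+ cells 0.665, 0.713, and 1.89 CPM, and E18.5 cells 0.248, 0.375, and 0.762 CPM. CD54+CD31- cells at E14.5 thus stood apart from all other groups. The log2 fold change of P2 against these cells was -6.59 (SE 0.64, adjusted p = 5.91e-06 from edgeR), a larger difference than that of 98.2% of the genes tested. Its size rested on P2 replicate 3, without which it was -8.25. The log2 fold change of P2 against CD31+ cells was -3.30 (SE 0.66, adjusted p = 0.000999 from edgeR), and it was -4.96 without P2 replicate 3 and -2.57 without CD31+ replicate 3. Between CD31+ and CD54+CD31- cells it was -3.29 (SE 0.50, adjusted p = 0.000187 from edgeR), and -4.03 without CD31+ replicate 3. *Lin28a* exceeded the other LIN28 gene in no group: per kilobase of exon, *Lin28b* made up 99.8% of the summed level of the 2 genes in P2 cells, 75.4% in CD54+CD31- cells at E14.5, 91.1% in CD31+ cells, and 74.3% in E18.5 cells.

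*Hmga1* (ENSMUSG00000046711, chromosome 17 from 27556497 to 27563674, plus strand) followed the same order of groups as *Lin28b*. Levels in replicates 1, 2, and 3 were 142, 143, and 138 CPM in P2 cells, 64.8, 72.8, and 63.2 CPM in CD54+CD31- cells at E14.5, 33.4, 42.5, and 36.0 CPM in CD31+ cells, and 10.7, 9.38, and 10.6 CPM at E18.5, with no overlap between any groups. P2 cells had 2.08-fold the level of CD54+CD31- cells (log2 fold change 1.06, SE 0.10, adjusted p = 5.47e-06 from edgeR) and 3.75-fold the level of CD31+ cells (log2 fold change 1.91, SE 0.10, adjusted p = 1.27e-07 from edgeR), while CD31+ cells were 1.80-fold below CD54+CD31- cells (log2 fold change -0.85, SE 0.10, adjusted p = 3.52e-05 from edgeR). As a share of the P2 mean, *Hmga1* was 44.8% to 51.7% in CD54+CD31- cells at E14.5 and 23.7% to 30.1% in CD31+ cells, in each case above the share of the erythroid markers. At E18.5 it was 6.65% to 7.62%, within the 5.44% to 8.27% of the erythroid sum. In E18.5 replicates 1, 2, and 3, *Tfrc* alone gave 107, 134.5, and 118 CPM of erythroid sums of 133, 202, and 173 CPM. The closeness of the shares at this age therefore rested largely on this marker. The part of erythroid RNA in the *Hmga1* level was not tested. The values of *Hmga1* are uncertain because of a near copy, *Hmga1b*, which shares 1403 of its 1577 stretches of 50 bases (89%) with *Hmga1* transcripts, so that the counting could split reads. *Hmga1b* had 112, 60.7, 24.9, and 6.00 CPM on average in P2, CD54+CD31-, CD31+, and E18.5 cells, which is the order of *Hmga1*.

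*Hmga2* (ENSMUSG00000056758, chromosome 10 from 120361275 to 120476469, minus strand) had another order, with CD31+ cells at the top. CD31+ libraries had 128, 110.3, and 119 CPM, CD54+CD31- libraries at E14.5 had 49.5, 39.6, and 52.1 CPM, P2 libraries had 26.4, 32.6, and 32.1 CPM, and E18.5 libraries had 40.3, 29.4, and 26.6 CPM. The CD31+ libraries were above all others, and the E18.5 libraries spanned the gap between P2 cells and CD54+CD31- cells at E14.5. The level in CD31+ cells was 2.52-fold that in CD54+CD31- cells (log2 fold change 1.33, SE 0.13, adjusted p = 6.22e-06 from edgeR) and 3.96-fold that in P2 cells (log2 fold change of P2 against CD31+ -1.99, SE 0.13, adjusted p = 3.64e-07 from edgeR). P2 cells were also below CD54+CD31- cells (log2 fold change -0.65, SE 0.13, adjusted p = 0.000939 from edgeR). *Hmga2* was the only 1 of the 9 genes called higher in CD31+ than in CD54+CD31- cells, where 8 were lower (background 31.7% higher and 34.0% lower). Per kilobase of exon, *Hmga2* made up 6.33% ± 0.703 (SD, n = 3) of the summed HMGA level in P2 cells, 18.2% ± 3.16 in CD54+CD31- cells at E14.5, 50.2% ± 4.94 in CD31+ cells, and 49.2% ± 4.99 in E18.5 cells. The P2 libraries were below all others in this share, which is uncertain because *Hmga1b* is not in the sum and may hold reads of *Hmga1*.

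*Igf2bp1* (ENSMUSG00000013415, chromosome 11 from 95957163 to 96005940, minus strand) had the highest level of the IGF2BP genes per kilobase of exon in each of the E14.5 groups. In replicates 1, 2, and 3 it had 304.5, 275, and 319 CPM in CD54+CD31- cells, 195, 199.6, and 225 CPM in P2 cells, and 152, 146, and 144 CPM in CD31+ cells. P2 cells lay between the other groups. Their log2 fold change was -0.55 against CD54+CD31- cells (SE 0.09, adjusted p = 0.000255 from edgeR) and 0.48 against CD31+ cells (SE 0.09, adjusted p = 0.000653 from edgeR). The latter call was lost with the authors' library factors in place of TMM, where the log2 fold change was 0.11 and edgeR's adjusted p = 0.341. CD31+ cells were 2.05-fold below CD54+CD31- cells (log2 fold change -1.03, SE 0.09, adjusted p = 3.09e-06 from edgeR).

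*Igf2bp2* (ENSMUSG00000033581, chromosome 16 from 22059009 to 22163299, minus strand) was the IGF2BP gene that P2 cells nearly lacked. P2 libraries had 6.61, 9.82, and 7.66 CPM, against 119, 110.3, and 126 CPM in CD54+CD31- cells at E14.5 and 85.5, 78.3, and 80.9 CPM in CD31+ cells. Each P2 library was far below every other library. P2 cells were 14.9-fold below CD54+CD31- cells (log2 fold change -3.90, SE 0.15, adjusted p = 4.39e-09 from edgeR), a larger difference than in 89.5% of the genes tested, and 10.2-fold below CD31+ cells (log2 fold change -3.35, SE 0.14, adjusted p = 4.19e-08 from edgeR). Between CD31+ and CD54+CD31- cells the difference was smaller (log2 fold change -0.54, SE 0.13, adjusted p = 0.00362 from edgeR).

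*Igf2bp3* (ENSMUSG00000029814, chromosome 6 from 49085223 to 49214957, minus strand) varied least of the family. It had 71.6, 77.1, and 80.4 CPM in P2 cells, 158, 149, and 169 CPM in CD54+CD31- cells at E14.5, and 95.7, 96.7, and 94.8 CPM in CD31+ cells. P2 cells were 2.10-fold below CD54+CD31- cells (log2 fold change -1.07, SE 0.08, adjusted p = 8.64e-07 from edgeR) and 1.26-fold below CD31+ cells (log2 fold change -0.34, SE 0.08, adjusted p = 0.00323 from edgeR). Without P2 replicate 1 the latter was no longer called (log2 fold change -0.22, adjusted p = 0.0769 from edgeR). CD31+ cells were below CD54+CD31- cells (log2 fold change -0.74, SE 0.08, adjusted p = 1.79e-05 from edgeR). *Igf2bp3* shares 1529 exon bases with *Malsu1* on the opposite strand, which had 7610 counts over the 12 libraries against 61326 of *Igf2bp3*. The strand setting of the counting is not given in the sources used here, so part of the reads could belong to either gene.

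As a family, the IGF2BP genes differed in make-up between groups. Per kilobase of exon, *Igf2bp1*, *Igf2bp2*, and *Igf2bp3* made up 67.1% ± 1.29, 3.42% ± 0.702, and 29.5% ± 0.630 of the summed level in P2 cells (SD, n = 3). The shares were 46.6% ± 0.440, 24.1% ± 0.104, and 29.3% ± 0.361 in CD54+CD31- cells at E14.5. In CD31+ cells they were 40.1% ± 0.252, 29.0% ± 0.738, and 30.9% ± 0.751. The share of *Igf2bp3* stayed between 28.8% and 31.6% in all 9 E14.5 libraries. At E18.5 the shares were 14.7% ± 1.69, 51.8% ± 5.02, and 33.5% ± 3.34, so that *Igf2bp2* had the highest share in each E18.5 library and *Igf2bp1* in each E14.5 library.

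**Figure D3:**
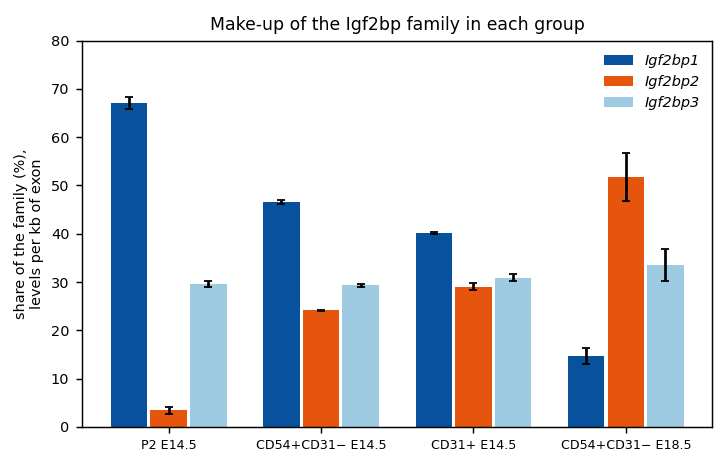
Share of each IGF2BP gene in the summed level of the family, in percent and per kilobase of exon. Bars are means of 3 libraries per group and error bars are SD. *Igf2bp1* ranges from 67.1% in P2 cells to 14.7% in E18.5 cells and *Igf2bp2* ranges from 3.42% to 51.8%.

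*Arid3a* (ENSMUSG00000019564, chromosome 10 from 79927043 to 79955018, plus strand) was highest in CD54+CD31- cells at E14.5. These libraries had 207.5, 186, and 209 CPM, CD31+ libraries 77.8, 78.4, and 79.3 CPM, P2 libraries 44.7, 49.2, and 52.1 CPM, and E18.5 libraries 39.6, 58.2, and 69.99 CPM. The E14.5 epithelial libraries stood apart, and the E18.5 libraries overlapped with those of P2 cells. P2 cells were 4.18-fold below CD54+CD31- cells (log2 fold change -2.06, SE 0.09, adjusted p = 1.26e-08 from edgeR) and 1.63-fold below CD31+ cells (log2 fold change -0.70, SE 0.09, adjusted p = 3.26e-05 from edgeR), and CD31+ cells were 2.57-fold below CD54+CD31- cells (log2 fold change -1.36, SE 0.09, adjusted p = 2.94e-07 from edgeR).

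*Hic2* (ENSMUSG00000050240, chromosome 16 from 17233572 to 17263430, plus strand) was likewise highest in CD54+CD31- cells at E14.5, with 66.5, 63.1, and 67.3 CPM. P2 libraries had 19.98, 21.9, and 22.01 CPM, CD31+ libraries 14.1, 13.6, and 15.6 CPM, and E18.5 libraries 17.3, 18.2, and 19.3 CPM. The last 3 groups were close to each other without overlapping. P2 cells were 3.12-fold below CD54+CD31- cells (log2 fold change -1.64, SE 0.09, adjusted p = 7.42e-08 from edgeR), and CD31+ cells 4.57-fold (log2 fold change -2.19, SE 0.09, adjusted p = 1.21e-08 from edgeR). P2 cells were above CD31+ cells (log2 fold change 0.55, SE 0.09, adjusted p = 0.000234 from edgeR), a call that was lost with the authors' library factors (log2 fold change 0.18, adjusted p = 0.140 from edgeR). *Bcl11a*, on which HIC2 is known to act, had 194 ± 8.72 CPM (SD, n = 3) in P2 cells, 21.0 ± 4.31 in CD54+CD31- cells at E14.5, 25.7 ± 4.37 in CD31+ cells, and 11.6 ± 1.77 at E18.5. *Hic2* was therefore highest where *Bcl11a* was low, but it was also low in CD31+ and E18.5 cells, where *Bcl11a* was low too. *Hic2* shares 3091 exon bases with a transcript on the opposite strand, Gm26635, which was not analysed here.

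**Figure D4:**
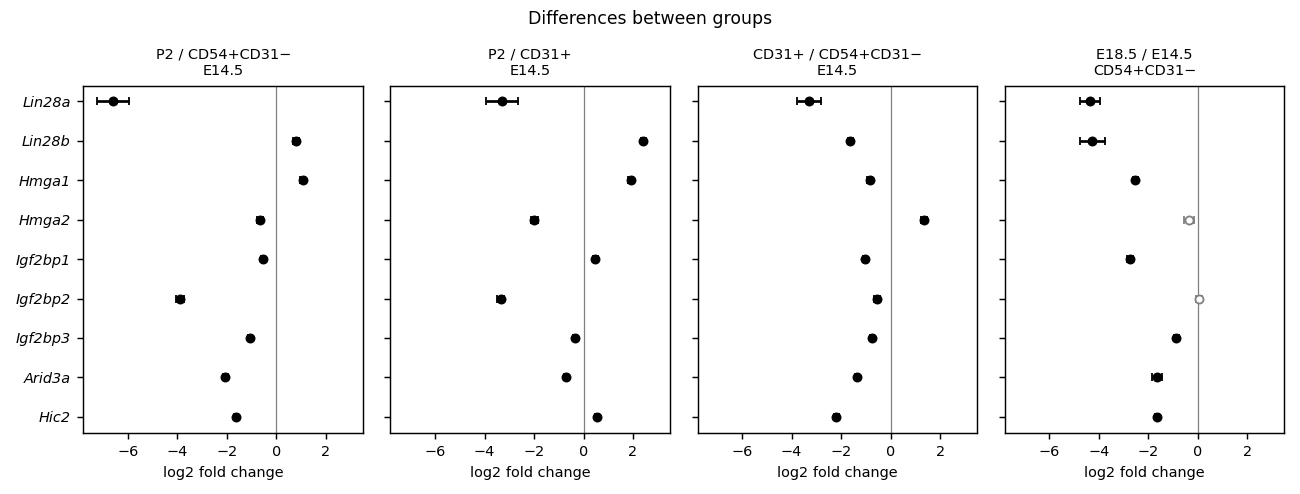
Log2 fold changes of the 9 genes in 4 comparisons, from edgeR, on a common x axis. Points are estimates and bars are standard errors, filled points passed an adjusted p below 0.05, and open points did not. All 9 genes passed in each E14.5 comparison, and *Hmga2* and *Igf2bp2* did not pass between ages.

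Between E14.5 and E18.5, in the CD54+CD31- gate, 7 of the 9 genes were lower at the later age, 0 were higher, and *Hmga2* and *Igf2bp2* were not called, against 33.5% of the 15863 genes tested lower and 35.9% higher (69.4% called). The median log2 fold change was -1.66 over the 9 genes and 0.03 over all genes. LIN28 genes fell most. *Lin28b* fell 19.04-fold, from a mean of 74.2 ± 5.62 to 3.44 ± 2.04 CPM (SD, n = 3; log2 fold change -4.25, SE 0.52, adjusted p = 0.000417 from edgeR), and *Lin28a* fell 20.2-fold (log2 fold change -4.34, SE 0.40, adjusted p = 0.000121 from edgeR). These differences exceeded those of 93.1% and 93.4% of the genes tested. *Igf2bp1* fell 6.63-fold to 36.0, 40.3, and 43.2 CPM (log2 fold change -2.73, SE 0.11, adjusted p = 1.51e-05 from edgeR), and *Hmga1* fell 5.75-fold (log2 fold change -2.52, SE 0.11, adjusted p = 1.57e-05 from edgeR). In *Arid3a* and *Hic2* the decrease was 3.17-fold and 3.16-fold (log2 fold changes -1.66 in each, SE 0.20 and 0.08, adjusted p = 0.000399 and 2.00e-05 from edgeR). *Igf2bp3* decreased 1.82-fold, to 70.8, 75.9, and 83.2 CPM (log2 fold change -0.86, SE 0.10, adjusted p = 0.000276 from edgeR).

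*Igf2bp2* and *Hmga2* differed in this respect, since their libraries overlapped between the ages. *Igf2bp2* had 124, 98.9, and 100.5 CPM at E18.5, within the range of the E14.5 libraries in replicate 1 only (log2 fold change 0.05, SE 0.13, adjusted p = 0.723 from edgeR). Its sign changed with the processing, and no setting called it. *Hmga2* had a log2 fold change of -0.36 (SE 0.20, adjusted p = 0.137 from edgeR). It was called lower without E18.5 replicate 1 (log2 fold change -0.58, adjusted p = 0.00328) and with all 12 libraries in 1 fit (log2 fold change -0.55, adjusted p = 0.00989), both from edgeR. A p above the threshold does not show that these levels were equal.

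What the sorted cells were differed between the ages too. The hepatoblast marker sum of the E18.5 libraries was 7.75% to 60.7% of the E14.5 mean, the erythroid sum was 133 to 202 CPM against 306 to 494 CPM at E14.5, the mesenchymal sum of 8 genes was 3940 to 4370 CPM against 121 to 239 CPM, and the lung sum was higher as given above. *Alb* was the largest part of the hepatoblast sum, with 2405, 26610, and 34540 CPM in E18.5 replicates 1, 2, and 3. *Afp*, *Ttr*, *Apoa1*, *Hnf4a*, and *Serpina1a* were, like *Alb*, lowest in replicate 1. *Dlk1* (1364, 787, and 842.5 CPM), *Cdh1*, *Krt8*, and *Krt18* were instead highest in replicate 1, so the hepatoblast share depended on the markers in the sum. As shares of the E14.5 mean, *Lin28b* was 1.46% to 6.25%, *Igf2bp1* 12% to 14.4%, and *Hmga1* 14.0% to 16.0%. The share of *Lin28b* was below the hepatoblast share in all 3 libraries, and those of *Igf2bp1* and *Hmga1* were below it in replicates 2 and 3 and above it in replicate 1. *Arid3a* (19.7% to 34.9%), *Hic2* (26.4% to 29.4%), *Igf2bp3* (44.7% to 52.5%), *Hmga2* (56.5% to 85.6%), and *Igf2bp2* (83.6% to 105%) followed at increasing shares. As shares of the P2 mean, *Lin28b* at E18.5 was 0.832% to 3.56% and the erythroid sum, mostly *Tfrc*, was 5.44% to 8.27%. Replicate 1 had the lowest hepatoblast and erythroid sums and the highest lung sum of the 3 E18.5 libraries. It also had the lowest *Lin28b* and *Arid3a* and the highest *Hmga2* and *Igf2bp2* of these libraries. The part of the cell mixture in these changes was not tested, and age and mixture cannot be told apart in these libraries. Leaving out replicate 1 changed only the call of *Hmga2*, which was then called lower as given above.

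**Figure D5:**
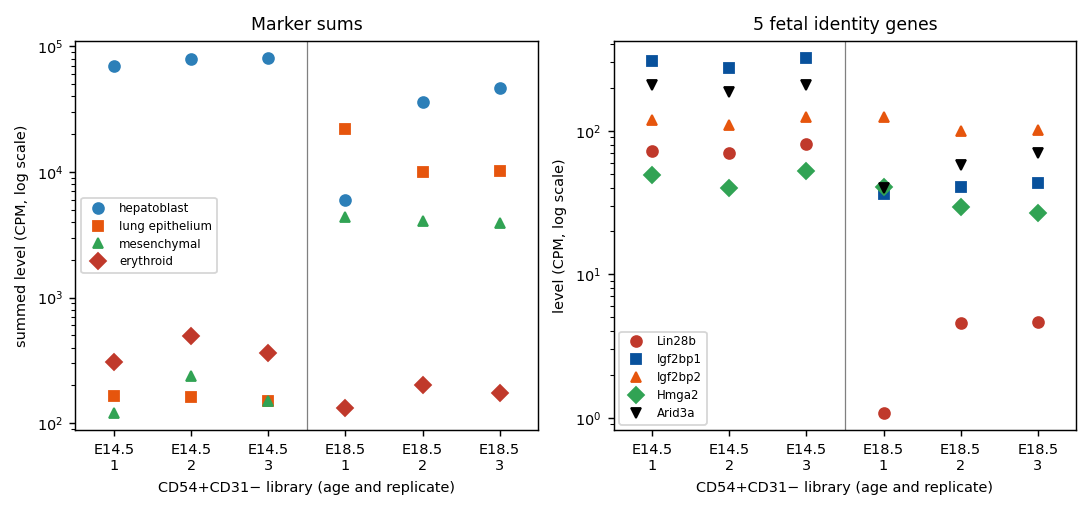
Marker sums (left) and 5 of the fetal identity genes (right) in each CD54+CD31- library at E14.5 and E18.5, in CPM on log scales. Each point is 1 library. The sums of hepatoblast and erythroid markers are lowest and the sum of lung epithelium markers is highest in E18.5 replicate 1. That library also has the lowest *Lin28b* and *Arid3a* and the highest *Hmga2* and *Igf2bp2* at that age.

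The E18.5 cells were also set against the other E14.5 groups, with age and cell type differing together, to see which neighbours in the order of levels differed. Against P2 cells, where 80.6% of 16643 genes were called, 3 of the 9 genes were not: *Igf2bp3* (76.6 ± 6.21 against 76.4 ± 4.41 CPM, SD, n = 3, log2 fold change 0.00, SE 0.09, adjusted p = 0.962 from edgeR), *Hmga2* (log2 fold change 0.08, SE 0.16, adjusted p = 0.662 from edgeR), and *Arid3a* (log2 fold change 0.20, SE 0.16, adjusted p = 0.276 from edgeR). At E18.5, 4 genes were lower than in P2 cells (*Lin28b*, *Hmga1*, *Igf2bp1*, and *Hic2*, background 36.6%), and 2 were higher (*Lin28a* and *Igf2bp2*, background 44.0%), *Lin28a* with overlapping libraries. Against CD31+ cells, where 68.5% were called, *Lin28a* was not called (log2 fold change -1.23, SE 0.58, adjusted p = 0.0790 from edgeR), *Hic2* and *Igf2bp2* were higher (background 29.7%), and the other 6 were lower (background 38.8%). The order from high to low was therefore P2, CD54+CD31- at E14.5, CD31+, and E18.5 for *Lin28b* and *Hmga1*, and CD54+CD31- at E14.5, P2, CD31+, and E18.5 for *Igf2bp1*. For *Igf2bp3* and *Arid3a* it was CD54+CD31- at E14.5, then CD31+, then P2 and E18.5 cells without a called difference. For *Hic2* it was CD54+CD31- at E14.5, P2, E18.5, and CD31+, with each neighbour called. The closest were P2 and E18.5 cells (log2 fold change -0.22, SE 0.09, adjusted p = 0.0366 from edgeR), against a median of 0.26 over all genes. E18.5 cells were compared with P2 and CD31+ cells in 1 fit only, so the dependence of these orders on the processing was not tested. For *Igf2bp2*, CD54+CD31- cells at both ages came first without a called difference, then CD31+ cells (log2 fold change of E18.5 against CD31+ 0.40, SE 0.14, adjusted p = 0.0223 from edgeR), then P2 cells. For *Hmga2*, CD31+ cells came first, then CD54+CD31- cells at E14.5, then E18.5 and P2 cells without a called difference. Whether E18.5 cells were below CD54+CD31- cells at E14.5 depended on the fit, as they were called lower with all 12 libraries, the fit used against P2 cells, and not with the 6 libraries of this gate. For *Lin28a*, CD54+CD31- cells at E14.5 came first, then CD31+ and E18.5 cells without a called difference, then P2 cells.

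Genes of the let-7 pathway were counted from fixed lists. Of 13 genes of let-7 processing, 7 were higher and 2 lower in P2 than in CD54+CD31- cells (33.8% and 36.1% of all genes). The 9 called genes are thus close to the 70.0% called over all genes, and the median of the list was 0.29 on the log2 scale (-0.01 over all genes). *Ago4*, an argonaute gene, had the largest change, -1.81. *Xpo5*, which exports precursors from the nucleus, had a log2 fold change of 1.12 and *Drosha*, which cuts the primary transcript, 1.09. *Tut4*, a terminal uridyltransferase gene whose product LIN28A recruits to let-7 precursors, was lower in P2 cells at -1.11, and its relative *Tut7* higher at 0.91. Adjusted p from edgeR was at most 1.88e-05 in these 5 genes. *Tut4* had 238 ± 11.7 CPM (SD, n = 3) in CD54+CD31- cells at E14.5, where *Lin28a* was highest, and 112 ± 8.83 in P2 cells. P2 and CD31+ cells differed in 10 of the 13 genes, 8 higher and 2 lower in P2 cells (34.3% and 39.4% of all genes), and in CD31+ against CD54+CD31- cells 4 were higher and 6 lower (31.7% and 34.0% of all genes). At E18.5, 3 were higher and 7 lower than at E14.5 (35.9% and 33.5% of all genes), led by *Ago4* (log2 fold change 3.46, adjusted p = 3.05e-05 from edgeR) and the Dicer partner gene *Tarbp2* (-1.82, adjusted p = 5.03e-05 from edgeR).

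Of 20 further genes known as let-7 targets, 9 were higher, 9 lower, and 2 not called in P2 against CD54+CD31- cells (33.8% higher and 36.1% lower among all genes). Their median log2 fold change was -0.08, against -0.01 over all genes. In this comparison *Trim71*, which encodes an RNA-binding ubiquitin ligase, had a log2 fold change of -6.06, the cyclin gene *Ccnd1* -5.07, *Mycn* -4.92, and the death receptor gene *Fas* -4.57, while the growth factor receptor gene *Igf1r* had 2.95. Adjusted p from edgeR was at most 1.23e-07 in these 5 genes. Against CD31+ cells 8 were higher and 7 lower in P2 cells (34.3% and 39.4% of all genes), and between CD31+ and CD54+CD31- cells 5 were higher and 7 lower (31.7% and 34.0%). At E18.5, 11 were lower, 4 higher, and 5 not called (33.5% lower, 35.9% higher, and 69.4% called among all genes), with a median of -0.47 against 0.03 over all genes. *Trim71* fell from 127 ± 17.2 to 10.4 ± 0.733 CPM (SD, n = 3; log2 fold change -3.42, adjusted p = 1.51e-05 from edgeR) and *Ccnd1* from 156 ± 9.36 to 21.8 ± 2.08 CPM (log2 fold change -2.65, adjusted p = 1.50e-05 from edgeR). *Igf1r*, *Thbs1*, and *Ccnd2* rose (log2 fold changes 3.15, 2.41, and 1.91, adjusted p at most 5.78e-05 from edgeR). *Trim71*, 1 of 12 genes among these 20 with CTACCTC in the longest 3′ UTR, shared with *Lin28a* a high level in CD54+CD31- cells at E14.5 and a low level in P2 cells.

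Of 9 measured fetal growth genes, among them the IGF2BP-bound mRNA *Igf2*, 8 were lower and 0 higher in P2 than in CD54+CD31- cells, against 36.1% and 33.8% of all genes. Their median log2 fold change was -5.44 (-0.01 over all genes), and *Mest* was not called (log2 fold change 0.84, adjusted p = 0.183 from edgeR). *Igf2* had 160 ± 33.8 CPM (SD, n = 3) in P2 cells, 11930 ± 524 in CD54+CD31- cells at E14.5, 1746 ± 151 in CD31+ cells, and 2972 ± 1449 at E18.5. P2 cells thus had the lowest *Igf2*, while their *Igf2bp1* lay between that of CD54+CD31- and CD31+ cells. *Afp*, *Dlk1*, and *Gpc3* had log2 fold changes of -6.80, -6.43, and -5.73 in P2 against CD54+CD31- cells, with adjusted p of at most 3.75e-09 from edgeR. *Afp* and *Dlk1* are also hepatoblast markers. At E18.5, 6 of the 9 were lower and 2 higher (33.5% and 35.9% of all genes). *Plagl1* and *Mest* were the higher ones (log2 fold changes 3.47 and 1.94, adjusted p = 1.57e-05 and 0.000576 from edgeR), and *Afp*, *Igf2*, and *Gpc3* were lower (-2.45, -1.83, and -1.46).

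Of 8 regulators of fetal stages, 4 were higher and 3 lower in P2 than in CD54+CD31- cells (33.8% and 36.1% of all genes). The zinc finger gene *Sall4* had 71.7 ± 3.66 CPM (SD, n = 3) in CD54+CD31- cells at E14.5 and 0.607 ± 0.134 CPM in P2 cells (log2 fold change -6.91, adjusted p = 2.71e-10 from edgeR). *Ezh2*, which encodes a histone methyltransferase, was higher in P2 cells, with 268 ± 4.42 against 104 ± 8.90 CPM (log2 fold change 1.35, adjusted p = 2.98e-07 from edgeR). At E18.5, 4 were higher and 3 lower (35.9% and 33.5% of all genes), and *Sall4* and *Ezh2* had log2 fold changes of -3.60 and -1.12 (adjusted p = 0.00328 and 0.000120 from edgeR). *Sox4*, *Sox11*, and *Sox17* were higher at E18.5 (log2 fold changes 4.03, 2.98, and 2.58, adjusted p at most 0.000951 from edgeR), where 8 of 8 endothelial, 8 of 8 mesenchymal, and 9 of 9 lung markers were higher as well (35.9% of all genes). Of 7 globin switching genes, 4 were higher in P2 than in CD54+CD31- cells and 0 lower (33.8% and 36.1% of all genes), led by *Myb* (log2 fold change 4.49) and *Bcl11a* (3.19), and 1 was higher and 4 lower at E18.5 (35.9% and 33.5%).

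Relatives of the 9 genes were compared as well. Of 7 relatives listed, *Arid3c* was too low to be tested. In P2 against CD54+CD31- cells, 3 of the 6 tested, *Ybx3*, *Ybx1*, and *Hmga1b*, were higher (background 33.8%, log2 fold changes 1.88, 0.96, and 0.87) and 1, *Hic1*, was lower (background 36.1%, -1.03), with adjusted p of at most 0.0120 from edgeR. *Hic1*, the relative of *Hic2*, was highest in CD31+ cells, with 37.7 ± 6.45 CPM (SD, n = 3) against 2.57 ± 0.736 in CD54+CD31- cells at E14.5 and 1.27 ± 0.561 in P2 cells, whereas *Hic2* was lowest in CD31+ cells. At E18.5 *Hmga1b*, *Ybx1*, and *Ybx3* were lower (log2 fold changes -3.15, -1.26, and -1.20) and *Hic1* higher (1.54), with adjusted p of at most 0.000973 from edgeR.

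For 6 of the genes, the 3 genes with the most similar pattern over the 12 libraries were sought among 16642 others, by the mean absolute difference in log2(CPM + 1) after each gene was centred on its own mean. For *Lin28b* these were the cyclin gene *Ccne1* (0.19), *Lrp8* (0.33), and the histone gene *Hist1h3g* (0.33), against a median of 1.72 over all genes. *Ccne1* had mean levels of 225, 131, 38.1, and 8.28 CPM in P2, CD54+CD31-, CD31+, and E18.5 cells, the order of *Lin28b*. For *Hmga1* they were *Hist1h4h* (0.12), *Comtd1* (0.15), and *Hist1h4c* (0.15), against a median of 1.22, so that histone genes were among the nearest of both. *Hmga2* was nearest to *Gas2l1* (0.15), *Sh3gl1* (0.16), and *Lrrc2* (0.16), with a median of 0.83. *Lrrc2* was low, with group means of 0.249 to 3.94 CPM, where the 1 added before the logarithm shrinks differences. *Igf2bp1* was nearest to *Skp2* (0.13), which encodes a subunit of a ubiquitin ligase that acts in the cell cycle, *Uqcc2* (0.20), and *Pycrl* (0.22), with a median of 1.00. *Igf2bp2* was nearest to *Tgfa* (0.13), *Actn1* (0.15), and *Galnt11* (0.15), with a median of 1.37, and *Tgfa* had 1.28 CPM in P2 cells and 21.4 CPM or more in the other groups. *Igf2bp3* was nearest to *Gcc2* (0.07), *Map2k1* (0.08), and *Ppp1r21* (0.08), with a median of 0.61.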

How the data were processed

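RNA of 12 libraries was analysed, 3 per group, with groups and replicate numbers from the sample labels. Per the submitters' processing notes, the authors trimmed reads with cutadapt 1.11, aligned them to GRCm38 with STAR 2.5.0a, counted them on genes with featureCounts 1.4.6-p3, and normalized in R 3.5.1 with DESeq2. The study describes the reads as single and the library kit as stranded, while the strand setting and the handling of multi-mapped reads are not given in the sources used here. The authors deposited raw counts, used here for all tests, and a rounded score (count times 1 factor per library), used only to read that factor.

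Tests used edgeR 4.0.16 in R 4.3.3 (TMM, filterByExpr, quasi-likelihood, Benjamini-Hochberg over all genes tested, adjusted p below 0.05). The 9 E14.5 libraries formed 1 fit, the 6 CD54+CD31- libraries another, and all 12 were fitted together for E18.5 against P2 and CD31+ cells. Standard errors are the size of the log2 fold change over the square root of F. Alternatives were DESeq2 size factors, the authors' factors, DESeq2 1.42.0, other low count filters, genes above 1% of a library left out, a replicate block, other sets of libraries in the fit, and each library left out. Same-numbered CD31+ and CD54+CD31- libraries at E14.5 deviated together (correlations 0.334, 0.260, and 0.122 for replicates 1, 2, and 3), so their numbers, which come from the labels, pair them by the rule used (every correlation over 0.1). No library repeated another, since counts of replicates differed beyond Poisson error (reduced chi-square 42.1 or more). The labels call the libraries of a group biological replicates, but for E18.5 no source says that they came from separate litters, so its p-values measure the spread between these libraries.

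The 9 genes, the pathway lists, and the markers were chosen with earlier results of these data known. All 9 genes are named, and from each list up to 5 of the called genes with the largest changes in a comparison, the genes behind counts of 5 or fewer where named, and the 3 genes most similar to 6 of the 9. Positions and UTRs come from GENCODE vM21 (GRCm38), which held 37932 of the 38127 identifiers. let-7 precursors and *H19* were not analysed here.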

Additional observations from a re-analysis of the deposited data

How the results depend on the processing

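Over 36 results (9 genes in 4 comparisons) and 528 values under alternatives, 519 kept their direction and their side of the threshold, 4 lost the call, 2 gained a call, and 3 changed direction; 30 results had no exception. The replicate block changed no call of the 9 genes in any of the 4 comparisons. The changes of direction were all in *Igf2bp2* between ages, where no value was called: -0.13 with all 12 libraries in 1 fit (adjusted p = 0.407 from edgeR), and -0.0799 to 0.119 when each library was left out, against 0.05. The cause was not tested. With the authors' factors the median log2 fold change of all genes moved by -0.26 in P2 against CD54+CD31-, -0.37 in P2 against CD31+, 0.11 in CD31+ against CD54+CD31-, and 0.24 in E18.5 against E14.5 cells, and the share of called genes that were higher went from 48.3% to 38.2%, 46.6% to 33.9%, 48.3% to 53.4%, and 51.7% to 60.9%. With all 12 libraries in 1 fit the age comparison moved by -0.19. A minimum of 10 counts in every library leaves *Lin28a* without a value at E14.5 and moves that median by up to -0.14 at E14.5 and 0.15 between ages. Depth limits *Lin28a* in P2 cells, whose libraries held 1, 2, and 13 counts.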
